A study of Mus musculus with 18 samples.

Results

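Immediate-early genes and phosphatases of mitogen-activated protein kinases (MAPKs) were followed in primary mouse bone marrow-derived macrophages (BMDMs) with and without prolyl endopeptidase (Prep). The 10 genes were taken by symbol from the deposited count table: Fos, Jun, Junb, Fosl2, Egr1, Atf3, Ier3, Zfp36, Dusp1 and Dusp2. All 10 were among the 16314 genes of the table, and all 10 passed the filter on low counts that kept 12021 genes for testing.

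Immediate-early genes are transcribed within minutes of a stimulus without new protein synthesis, because the factors that start them are already present and are switched on by MAPKs such as ERK, JNK and p38. Many of the products are transcription factors: Fos and Jun family proteins pair to form AP-1, Egr1 is a zinc-finger activator, and Atf3 is a bZIP factor that often represses inflammatory genes. Others end the response, because Zfp36 (tristetraprolin) binds AU-rich elements and speeds the decay of cytokine mRNAs, while Dusp1 and Dusp2 are nuclear phosphatases that remove phosphate from activated MAPKs. Their mRNAs are usually short-lived, and in macrophages lipopolysaccharide (LPS) induces many of them through Toll-like receptor 4.

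The study asked how loss of Prep, a serine peptidase that cuts after proline, alters the macrophage transcriptome. Bone marrow of Prep-/- mice and of their Prep+/- littermates on a C57BL6/J background was cultured for 7 days in 50 ng/ml macrophage colony-stimulating factor. Cells were then left without stimulus (M0), given LPS at 50 ng/ml for 24 h (M1), or given IL-4 and IL-13 at 20 ng/ml each for 24 h (M2). With 3 libraries in each of the 6 groups there were 18 libraries. The control cells carried 1 intact Prep allele, so no comparison with wild-type cells was made. All stimulated cells were harvested at the single time of 24 h, long after the usual peak of immediate-early transcription. The mutation was present in the whole animal, and the labels give neither the sex nor the age of the marrow donors. The methods call the replicates biological without saying whether each came from its own mouse, so the p-values measure the spread between these cultures.

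Total counts per library lay between 19068237 and 22598279. Prep stood at 26.0 to 42.5 CPM (counts scaled to library size) in the Prep+/- libraries and at 1.48 to 3.22 CPM in the Prep-/- libraries. All 9 macrophage markers examined (among them Adgre1, Cd68, Csf1r and Lyz2) were in the table, with summed levels of 10449 to 48660 CPM. Erythroid and mast cell markers were at or near 0, with sums of at most 0.185 and 0.0801 CPM. Only 1 of the 5 mast cell and basophil markers was in the table, so that sum is the level of a single gene. Replicate 3 stood apart from the other replicates in M0 Prep-/- and in M2 Prep-/-: counts of its pairs differed by 111 to 119.7 chi-square units per gene, against 35.2 and 12.1 between the remaining pair of each group. Several results are also given below without these libraries.

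**Figure D1:**
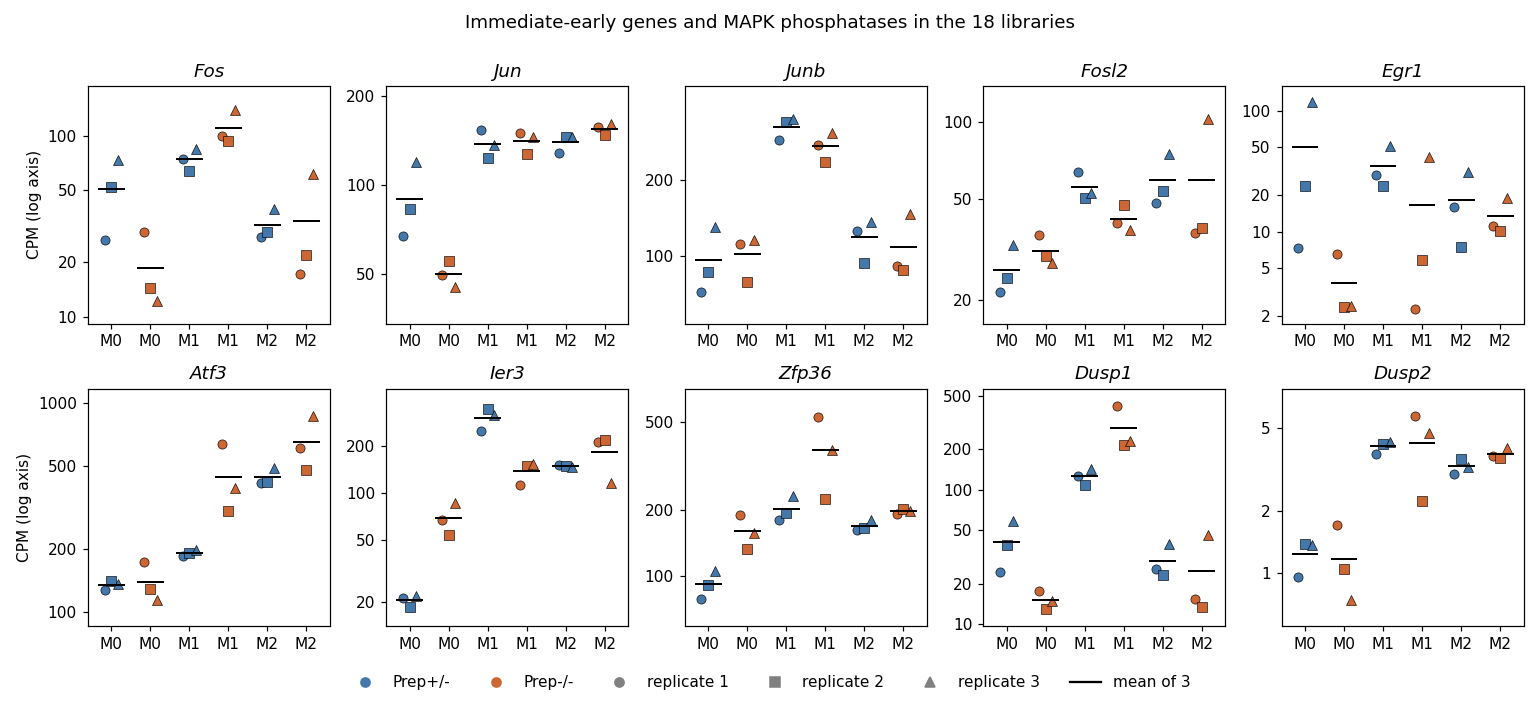
Level of each gene in CPM (log axis) in the 6 groups, with Prep+/- in blue and Prep-/- in orange. Each symbol is 1 library, its shape gives the replicate number and the bar is the mean of 3 libraries. Egr1 was the most scattered, from 7.25 to 120.3 CPM in M0 Prep+/- and from 2.29 to 42.0 CPM in M1 Prep-/-.

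The genes are scattered over 9 chromosomes. On GRCm39, with the canonical transcripts of GENCODE, Fos lies at chr12:85520658-85524047 (plus strand, 4 exons), Jun at chr4:94937271-94940459 (minus, 1 exon), Junb at chr8:85703539-85705347 (minus, 1 exon) and Fosl2 at chr5:32292707-32315186 (plus, 4 exons). Atf3 lies at chr1:190902493-190915537 (minus, 4 exons), Ier3 at chr17:36132568-36133815 (plus, 2 exons) and Zfp36 at chr7:28076209-28079710 (minus, 2 exons). Dusp1 lies at chr17:26724564-26727493 (minus, 4 exons) and Dusp2 at chr2:127177957-127180296 (plus, 4 exons). Annotated non-coding genes run on the opposite strand over Jun, Junb, Fosl2, Ier3, Zfp36 and Dusp2. The kit kept the strand of the RNA, but the strand setting of the counting is not given in the sources used here, so reads of the antisense genes may be included in those 6 values. In addition, a stretch of 133 to 176 bases of the Zfp36 transcript is shared at 90% identity or more with transcripts of at least 161 other genes.

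Upstream sequences are shown for 4 genes: Fos, Dusp1 and Jun, called lower in M0 Prep-/- cells, and Ier3, called higher. The 4 sequences differ in the letters they carry, and no link between letters and direction was tested. The 200 bases from 250 to 51 bases upstream of the RefSeq start (build GRCm38.p6) are printed 5′ to 3′ on the strand of the gene, and capitals mark the core of the cyclic AMP response element (CRE; TGACG or its complement CGTCA) and matches to the NF-kappaB motif.
Fos (chr12:85473640-85473839, plus strand): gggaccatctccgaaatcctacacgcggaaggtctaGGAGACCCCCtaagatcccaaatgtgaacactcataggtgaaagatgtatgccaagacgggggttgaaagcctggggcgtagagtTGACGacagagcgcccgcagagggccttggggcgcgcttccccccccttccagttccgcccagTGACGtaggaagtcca
Dusp1 (chr17:26508523-26508722, minus strand): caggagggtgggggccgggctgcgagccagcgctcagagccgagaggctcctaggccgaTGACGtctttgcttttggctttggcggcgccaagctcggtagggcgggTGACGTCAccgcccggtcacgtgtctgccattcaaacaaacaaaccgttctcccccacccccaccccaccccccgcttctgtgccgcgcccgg
Ier3 (chr17:35821463-35821662, plus strand): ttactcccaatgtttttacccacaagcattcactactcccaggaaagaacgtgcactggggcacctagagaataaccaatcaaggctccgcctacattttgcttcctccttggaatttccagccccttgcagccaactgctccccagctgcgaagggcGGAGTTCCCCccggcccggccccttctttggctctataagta
Jun (chr4:95052273-95052472, minus strand): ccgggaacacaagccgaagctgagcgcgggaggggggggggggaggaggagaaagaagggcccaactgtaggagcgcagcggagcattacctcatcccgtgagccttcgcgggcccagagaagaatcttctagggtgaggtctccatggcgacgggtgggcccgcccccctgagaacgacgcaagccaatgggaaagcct
Fos held 2 CRE cores, 129 and 66 bases upstream, and a NF-kappaB match 214 bases upstream. Dusp1 held a CRE core 191 bases upstream and the full 8-letter CRE TGACGTCA 143 bases upstream, which contains the core on both strands. Ier3 held a NF-kappaB match 92 bases upstream, and Jun held neither motif in the window.

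The RefSeq table holds the upstream sequence of 9 of the 10 genes, all but Egr1. Over the 250 bases upstream, searched on both strands, the CRE core was found in 4 of the 9 (Fos, Junb, Atf3 and Dusp1) and in 17.8% of the 32851 promoters of the table. The full CRE was found in 1 of the 9 and in 1.55% of all promoters. NF-kappaB matches stood in 3 of the 9 (Fos, Fosl2 and Ier3) and in 3.9% of all promoters, and the EGR motif GCGNGGGCG stood in 3 of the 9 (Fosl2, Zfp36 and Dusp2) and in 4.7%. The core of the serum response element was found in 1 of the 9 (Zfp36) and in 1.47% of all promoters, TATAAA in 1 (Fos) and in 12.4%, and the AP-1 motif TGANTCA in none of the 9 and in 6.75%. Sequence more than 250 bases upstream was not searched, so a motif not found here may lie outside the window.

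Levels per kilobase of transcript placed Atf3 and Junb at the top of the set in M0 Prep+/- cells, with means of 68.0 and 53.1 CPM per kb. Zfp36 (32.6), Jun (28.3), Fos (24.1), Dusp1 (20.4) and Ier3 (18.1 CPM per kb) followed, then Egr1 with 11.2 and Fosl2 with 3.79. Dusp2 was lowest with 0.709 CPM per kb, from 21 to 35 counts per library. The ranges of neighbours in this order overlapped at every step except from Junb to Zfp36 and from Fosl2 to Dusp2.

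In unstimulated macrophages the knockout split the set. The immediate-early factors Fos, Jun and Egr1 and the phosphatase Dusp1 were lower in Prep-/- cells, whereas Ier3, a regulator of survival and of ERK signalling, and the mRNA decay factor Zfp36 were higher. Thus 6 of the 10 were called, 2 higher and 4 lower, where called means an adjusted p below 0.05 and a change of more than 1.5-fold. Over all genes tested 32.6% were called in this comparison, 15.4% higher and 17.2% lower, and the median log2 fold change was -0.03 over the 10 genes and 0.02 over all genes. The ranges of the groups did not overlap for 5 of the 10, against 52.6% of all genes tested. Adjusted p-values here and below come from edgeR's quasi-likelihood test with Benjamini-Hochberg adjustment over all genes tested.

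Ier3 stood at 21.4, 18.7 and 21.9 CPM in the Prep+/- M0 libraries and at 67.7, 54.1 and 86.4 CPM in the Prep-/- M0 libraries. The lowest knockout library was above every control library, and the 3.36-fold difference (log2 fold change 1.75 ± 0.22 SE, edgeR adjusted p = 1.35e-05) was called under all 14 alternatives. Zfp36 stood at 79.0, 91.4 and 105 CPM in Prep+/- and at 189.5, 133 and 157 CPM in Prep-/-, again without overlap. The log2 fold change of Zfp36 was 0.80 ± 0.22 (SE, edgeR adjusted p = 0.00652), and it was called under all 14 alternatives as well.

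Jun stood at 67.2, 83.4 and 120.2 CPM in Prep+/- and at 49.7, 55.6 and 45.4 CPM in Prep-/-. All knockout libraries were below all controls, with a log2 fold change of -0.85 ± 0.16 (SE, edgeR adjusted p = 4.66e-04). Dusp1, which inactivates p38 and JNK, stood at 24.5, 39.1 and 58.2 CPM in Prep+/- and at 17.7, 12.8 and 14.8 CPM in Prep-/-. These ranges did not overlap either, and the level was 2.69-fold lower (log2 fold change -1.43 ± 0.41 SE, edgeR adjusted p = 0.00948).

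Fos stood at 26.7, 52.0 and 73.9 CPM in Prep+/- and at 29.5, 14.4 and 12.2 CPM in Prep-/-. Knockout replicate 1 lay within the range of the controls, and the log2 fold change was -1.45 ± 0.44 (SE, edgeR adjusted p = 0.0121). Egr1 stood at 7.25, 23.9 and 120.3 CPM in Prep+/- and at 6.45, 2.34 and 2.40 CPM in Prep-/-. The groups barely met without overlapping, and the log2 fold change of -3.77 carried the widest error of the set (± 1.03 SE, 95% interval -5.94 to -1.59, edgeR adjusted p = 0.00652).

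Control replicate 3 carried the highest level of Fos, Jun, Egr1 and Dusp1 in M0. Without it the count fell from 6 to 3: the log2 fold changes became -1.10 for Fos (edgeR adjusted p = 0.0687), -2.09 for Egr1 (0.0811) and -1.09 for Dusp1 (0.0555). Without Prep-/- replicate 3, the library that stood apart from its group, the same 6 genes were called, and without Prep-/- replicate 1 the log2 fold change of Egr1 was -4.41. Without replicate 3 of every group, an alternative chosen after the data were seen, Jun fell below the 1.5-fold limit with a log2 fold change of -0.53, and Egr1 stood at -1.86 (edgeR adjusted p = 0.0206). Junb, Fosl2, Atf3 and Dusp2 were not called in M0, and their log2 fold changes lay between -0.09 and 0.24.

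Marker sums differed between the M0 groups. The 10 heat shock genes summed to 616 to 750.3 CPM in Prep+/- and to 309 to 355 CPM in Prep-/-, with 4 of the 9 tested called lower, led by the chaperone Hsp90aa1 (log2 fold change -2.11 ± 0.27 SE, edgeR adjusted p = 1.47e-05). The 8 granulocyte precursor markers, all present in the table, summed to 17.3 to 22.3 CPM in Prep+/- and to 36.1 to 84.6 CPM in Prep-/-, and the 9 macrophage markers to 19311 to 22747 CPM and to 30828 to 48660 CPM. The 3 of 6 T cell markers above 0 in the table summed to 0.947 to 1.09 CPM in Prep+/- and to 8.16 to 29.7 CPM in Prep-/-, and the 3 of 5 B cell markers above 0 to 3.01 to 4.78 and to 8.66 to 11.5 CPM. None of these ranges overlapped. Sums of the 6 dendritic cell markers were apart too (0.361 to 0.552 and 0.969 to 1.42 CPM), but the only 1 tested was not called. Those of the 6 stromal markers overlapped (12.7 to 15.8 and 0.738 to 17.7 CPM), with 1 of 5 tested called higher. The value of 0.738 CPM was that of Prep-/- replicate 3. Called higher were 6 of the 9 macrophage markers tested, 3 of 4 granulocyte precursor markers, 1 of 2 T cell markers and the only B cell marker tested. Of all genes tested 15.4% were called higher and 17.2% lower. The part of these sets in the differences of the 10 genes was not tested. In bulk RNA, fewer cells of a kind and less RNA per cell cannot be told apart.

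In LPS-stimulated macrophages Dusp1 was higher rather than lower in the knockout, and Ier3 lower rather than higher. Called were 4 of the 10, 3 higher (Atf3, Zfp36 and Dusp1) and 1 lower (Ier3), against 22.5% of all genes tested, 12.3% higher and 10.2% lower. The ranges were apart for 5 of the 10, against 56.9% of all genes. The median log2 fold change was 0.04 over the 10 genes and 0.04 over all genes. Marker sums differed in M1 too, without overlap: heat shock genes summed to 915 to 970.3 CPM in Prep+/- and to 650.3 to 686 CPM in Prep-/-, macrophage markers to 46435 to 47882 and to 31625 to 37568 CPM, T cell markers to 0.899 to 1.67 and to 3.23 to 4.68 CPM, and B cell markers to 2.06 to 2.59 and to 5.09 to 6.96 CPM. Their part in the M1 differences was not tested.

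Atf3 stood at 186, 190.5 and 198 CPM in the Prep+/- M1 libraries and at 633, 303 and 392 CPM in the Prep-/- M1 libraries. Every knockout library exceeded every control, by 2.31-fold on average (log2 fold change 1.21 ± 0.24 SE, edgeR adjusted p = 0.00132), and the call held under all 14 alternatives. Ier3 stood at 249.8, 348 and 319.5 CPM in Prep+/- and at 112, 149.5 and 153 CPM in Prep-/-. It was 2.21-fold lower without overlap (log2 fold change -1.14 ± 0.21 SE, edgeR adjusted p = 9.52e-04), also under all 14 alternatives.

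Zfp36 stood at 179, 194 and 231 CPM in Prep+/- and at 526, 224 and 375 CPM in Prep-/-. Knockout replicate 2 fell inside the control range, and the log2 fold change was 0.90 ± 0.22 (SE, edgeR adjusted p = 0.00517). Dusp1 stood at 127, 109 and 143 CPM in Prep+/- and at 421, 217 and 229.8 CPM in Prep-/-. The groups were apart, with a log2 fold change of 1.20 ± 0.40 (SE, edgeR adjusted p = 0.0277).

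Replicate 1 of M1 Prep-/- held the highest Atf3, Zfp36 and Dusp1. Without it the count fell from 4 to 2, with log2 fold changes of 0.56 for Zfp36 (edgeR adjusted p = 0.0456, below the 1.5-fold limit) and 0.81 for Dusp1 (0.165). The Dusp1 call was also lost without any single M1 Prep+/- replicate, with log2 fold changes of 1.19, 1.09 and 1.29 (edgeR adjusted p = 0.0610, 0.0984 and 0.0546) for replicates 1, 2 and 3, always in the same direction.

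Of the genes not called in M1, Fos was separated without passing the test: 74.9, 64.1 and 84.2 CPM in Prep+/- against 99.3, 93.6 and 139.8 CPM in Prep-/- (log2 fold change 0.58 ± 0.42 SE, edgeR adjusted p = 0.297). Fosl2 was separated in the other direction, with means of 55.6 and 41.7 CPM and a log2 fold change of -0.41 ± 0.30 (SE, edgeR adjusted p = 0.297). Egr1 stood at 29.4, 23.8 and 51.6 CPM in Prep+/- and at 2.29, 5.85 and 42.0 CPM in Prep-/-. Knockout replicate 3 reached the control range while the other knockout libraries lay far below it, so the log2 fold change of -1.06 ± 0.91 (SE, edgeR adjusted p = 0.376) became -3.11 (0.0255) without that library. Jun, Junb and Dusp2 had log2 fold changes of 0.03, -0.26 and 0.05.

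In IL-4 and IL-13-stimulated macrophages edgeR called none of the 10 genes, against 16.2% of all genes tested, 6.37% higher and 9.82% lower. DESeq2 also called 0, and 1 gene had an unadjusted p below 0.05. That gene was Atf3, which stood at 416, 417 and 488 CPM in Prep+/- and at 606, 477 and 869 CPM in Prep-/- (log2 fold change 0.56 ± 0.23 SE, 95% interval 0.07 to 1.06, edgeR adjusted p = 0.0904), and it was called without Prep-/- replicate 2 (0.75, 0.0351). Ranges were apart for 3 of the 10 (Jun, Zfp36 and Dusp2, all higher in Prep-/-), against 42.1% of all genes. Marker sums differed in M2 as well. Those of Prep+/- and Prep-/- were apart for macrophage markers (10449 to 12585 and 14371.5 to 20010 CPM), granulocyte precursor markers (11.0 to 13.0 and 14.4 to 22.6) and T cell markers (0.256 to 0.755 and 1.65 to 2.78). The sums of heat shock genes and of B cell, stromal and dendritic cell markers overlapped. Called higher were 2 of 9 macrophage markers, 1 of 2 T cell markers and 0 of 4 granulocyte precursor markers tested, and none of these was called lower. The part of these markers in the M2 values was not tested.

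Leaving out replicate 3 of M2 Prep-/- changed several of these values. It held the highest Fos (61.7 CPM, against 17.3 and 21.99 in the other knockout libraries), Fosl2 (103, against 36.9 and 38.4), Dusp1 (46.0, against 15.4 and 13.3) and Junb (146, against 91.4 and 88.2), and the lowest Ier3 (117, against 214 and 221). The sum of the heat shock genes was 1117 CPM in that library and 634 to 649 CPM in the other M2 Prep-/- libraries. Without it Fosl2 (log2 fold change -0.64, edgeR adjusted p = 0.0198) and Dusp1 (-1.01, 0.0333) were called lower in the knockout. Fos, at 0.07 with all libraries, was -0.70 without it (0.166), and Ier3 was 0.55 (0.0262, below the 1.5-fold limit), and Atf3 was 0.31 (0.313). The part of the heat shock genes in these values was not tested.

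**Figure D2:**
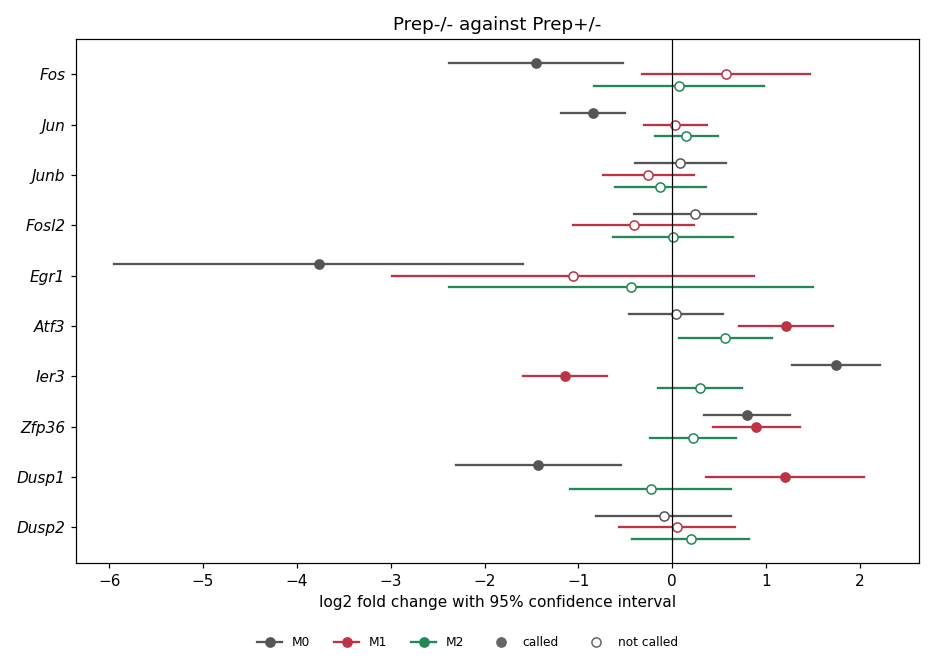
Log2 fold change of Prep-/- against Prep+/- in M0, M1 and M2 with its 95% confidence interval from edgeR, for the 10 genes. Filled symbols are called. Dusp1 moved from -1.43 in M0 to 1.20 in M1, Ier3 from 1.75 to -1.14, and no M2 symbol is filled.

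Whether the effect of the knockout depended on the state was tested directly. From M0 to M1 it changed for 5 of the 10 genes, 4 upward and 1 downward, against 21.1% of all genes tested, 12.0% upward and 9.15% downward. Among the 5 called, Ier3 had the largest difference on this scale, -2.89 ± 0.31 (SE, log2, edgeR adjusted p = 1.98e-05), followed by Dusp1 with 2.62 ± 0.57 (0.00409). Both were called under all 20 alternatives. Differences of 2.02 ± 0.61 for Fos (0.0234), 1.17 ± 0.33 for Atf3 (0.0179) and 0.88 ± 0.23 for Jun (0.0106) were also called. The Fos call was lost without M0 Prep+/- replicate 3 (1.66, edgeR adjusted p = 0.0743), without M1 Prep+/- replicate 2 (1.92, 0.0563) and without M1 Prep-/- replicate 3 (1.82, 0.0530). Without replicate 3 of every group the differences were 0.53 for Jun (edgeR adjusted p = 0.0987) and 1.15 for Atf3 (0.0515), neither called, and 1.33 for Fos (0.0499). Fosl2, at -0.65 with all libraries (0.280), was called under that setting (-0.88, 0.0117) and with only the compared libraries in the fit (-0.68, 0.0484). Zfp36 had a difference of 0.10 with a 95% interval from -0.55 to 0.75, and Egr1 one of 2.70 ± 1.34 (SE, edgeR adjusted p = 0.150).

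From M0 to M2 the knockout effect changed for Jun (0.99 ± 0.23 SE, edgeR adjusted p = 0.0130) and Ier3 (-1.45 ± 0.30, 0.00836), that is for 2 of the 10, against 8.66% of all genes tested, 4.53% upward and 4.13% downward. Without replicate 3 of every group the Jun difference was 0.70 (edgeR adjusted p = 0.0723). Fosl2, at -0.23 with all libraries (0.772), was called under that setting (-0.91, 0.0261). The Ier3 difference kept its size but missed the threshold with the replicate number as a block (-1.51, 0.0707). Both calls held without M0 or M2 Prep-/- replicate 3. The 2 differences of effects share the M0 libraries. Fos, Egr1 and Dusp1 had differences of 1.52, 3.33 and 1.20 that were not called (edgeR adjusted p = 0.129, 0.132 and 0.203).

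The LPS response itself was upward in every call. Higher in M1 than in M0 were 7 of the 10 in Prep+/- cells (Jun, Junb, Fosl2, Ier3, Zfp36, Dusp1 and Dusp2) and 8 of the 10 in Prep-/- cells (Fos, Jun, Junb, Atf3, Ier3, Zfp36, Dusp1 and Dusp2), and none was called lower. Over all genes tested 37.7% were called in Prep+/-, 16.7% higher and 20.9% lower, and 42.0% in Prep-/-, 20.9% higher and 21.0% lower. The M1 and M0 ranges were apart for 8 of the 10 in Prep+/- and 9 of the 10 in Prep-/-, against 65.2% and 58.5% of all genes. The median log2 fold change over the 10 genes was 1.10 in Prep+/- and 1.58 in Prep-/-, against -0.03 and 0.00 over all genes.

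Ier3 rose 14.8-fold in Prep+/-, from a mean of 20.7 ± 1.72 to 306 ± 50.4 CPM (SD, n = 3), and 1.99-fold in Prep-/-, from 69.4 ± 16.2 to 138 ± 22.7 CPM. The knockout therefore began higher and ended lower. For Dusp1 the order was the opposite: it rose 3.10-fold in Prep+/-, from 40.6 ± 16.9 to 126 ± 17.1 CPM (SD, n = 3), and 19.1-fold in Prep-/-, from 15.1 ± 2.46 to 289 ± 114 CPM. Fos followed Dusp1, with log2 fold changes of 0.55 ± 0.42 in Prep+/- (SE, edgeR adjusted p = 0.294) and 2.57 ± 0.45 in Prep-/- (1.35e-04).

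Junb, an AP-1 partner that restrains Jun, rose from 96.1 ± 30.3 to 325 ± 32.1 CPM in Prep+/- and from 102 ± 19.9 to 272 ± 35.7 CPM in Prep-/- (SD, n = 3). Its log2 fold changes of 1.76 ± 0.23 and 1.42 ± 0.23 (SE) did not differ by the test (difference -0.34, 95% interval -1.02 to 0.34). Zfp36 rose by similar amounts on the log2 scale, 1.13 ± 0.22 and 1.23 ± 0.22 (SE), and so did Dusp2, 1.72 ± 0.32 and 1.86 ± 0.32. Dusp2 remained scarce, with 4.10 CPM in M1 Prep+/- and 4.24 CPM in M1 Prep-/- on average, from 44 to 111 counts per library.

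Jun rose by 0.61 ± 0.16 in Prep+/- (SE, log2, edgeR adjusted p = 0.00413) and by 1.49 ± 0.16 in Prep-/- (1.09e-06), and the M1 levels of the genotypes met at means of 138 and 141 CPM. The Prep+/- call of Jun fell below the 1.5-fold limit without M0 Prep+/- replicate 1 or 2 or without M1 Prep+/- replicate 1, with log2 fold changes of 0.41, 0.56 and 0.50. Atf3 had log2 fold changes of 0.51 ± 0.24 in Prep+/- (SE, edgeR adjusted p = 0.0823) and 1.67 ± 0.24 in Prep-/- (1.89e-05), and Fosl2 1.07 ± 0.31 (0.00751) and 0.42 ± 0.30 (0.255). Egr1 was called in neither genotype, at -0.53 ± 0.89 and 2.17 ± 1.004 (SE), although without M1 Prep-/- replicate 1 the value in Prep-/- was 2.65 (edgeR adjusted p = 0.0327). Without M1 Prep-/- replicate 3, the library at 42.0 CPM, it was 0.10 (0.940). The 8 calls in Prep-/- held without M0 Prep-/- replicate 3, at log2 fold changes between 1.15 (Ier3) and 4.21 (Dusp1).

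The response to IL-4 and IL-13, measured against the same M0 libraries as the LPS response, was also upward in every call of the fit of all 18 libraries. It comprised 6 of the 10 in Prep+/- cells (Jun, Fosl2, Atf3, Ier3, Zfp36 and Dusp2), against 12.9% of all genes called, 6.09% higher and 6.77% lower, and 5 of the 10 in Prep-/- cells (Jun, Fosl2, Atf3, Ier3 and Dusp2), against 30.2% called, 14.7% higher and 15.5% lower. The M2 and M0 ranges were apart for 6 of the 10 in Prep+/- and 7 of the 10 in Prep-/-, against 45.9% and 44.4% of all genes. Without M0 Prep+/- replicate 1 the count in Prep+/- was 3 (edgeR), as Jun (0.45, adjusted p = 0.0540), Fosl2 (1.02, 0.0601) and Zfp36 (0.76, 0.0513) missed the threshold. Jun and Fosl2 also lost their calls without M0 Prep+/- replicate 2 (0.57, edgeR adjusted p = 0.0553, and 1.10, 0.0570) and without M2 Prep+/- replicate 3 (0.58, 0.0411, below the 1.5-fold limit, and 0.92, 0.0726).

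Atf3 stood higher in M2 than in M1 of Prep+/- cells, at 440.3 ± 41.3 CPM against 191 ± 6.11 CPM (SD, n = 3), and these ranges did not overlap, though the difference between M2 and M1 was not tested. Against M0 its log2 fold changes in M2 were 1.71 ± 0.24 in Prep+/- (SE, edgeR adjusted p = 7.58e-05) and 2.23 ± 0.24 in Prep-/- (2.13e-06). Ier3 rose by 2.86 ± 0.23 in Prep+/- and by 1.41 ± 0.22 in Prep-/- (SE, log2, edgeR adjusted p = 1.49e-07 and 6.78e-05). Its Prep+/- M2 libraries were the tightest group of the set, at 152, 149 and 148 CPM.

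Jun reached means of 140.3 CPM in M2 Prep+/- and 156 CPM in M2 Prep-/-, from 90.3 and 50.2 CPM in M0. Dusp2 rose by 1.402 ± 0.32 and 1.69 ± 0.32 on the log2 scale (SE). Fosl2 rose by 1.16 ± 0.31 in Prep+/- (SE, edgeR adjusted p = 0.0133) and by 0.92 ± 0.30 in Prep-/- (0.0212), but the latter was 0.26 without M2 Prep-/- replicate 3 (0.319), and it also missed the threshold without M0 Prep-/- replicate 2 (0.86, 0.0588) or 3 (0.84, 0.0590). The other 4 calls in Prep-/- held without M2 Prep-/- replicate 3. Fos, Egr1 and Dusp1, the 3 members that were lowest in M0 Prep-/- relative to control, were called in neither genotype. In Prep+/- cells their log2 fold changes from M0 to M2 were -0.67, -1.48 and -0.47. The Prep-/- cells gave 0.85, 1.85 and 0.72. Fos in Prep-/- was called without M0 replicate 1 (1.34, edgeR adjusted p = 0.0328) or without M2 replicate 1 (1.14, 0.0451). Without M2 Prep-/- replicate 3 it was 0.07 (0.908), and Dusp1 was -0.08 (0.879). Egr1 in Prep-/- was called higher with only the compared libraries in the fit (1.84, edgeR adjusted p = 0.0217) and with the replicate block (1.93, 0.0346). In Prep+/- the block called Egr1 lower (-0.98, 0.0373).

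**Figure D3:**
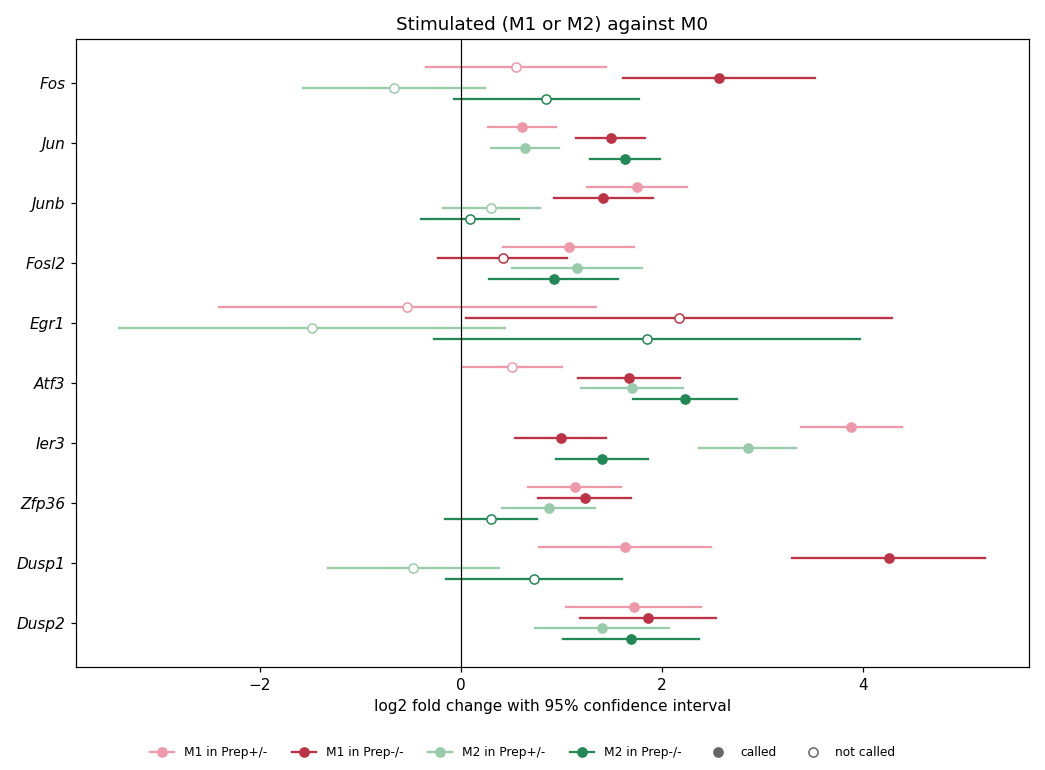
Log2 fold change of M1 and M2 against M0 in each genotype with its 95% confidence interval from edgeR. Filled symbols are called. Ier3 lies further right in Prep+/- (3.89 in M1 and 2.86 in M2) than in Prep-/- (0.996 and 1.41), and Dusp1 and Fos in M1 lie further right in Prep-/- (4.26 and 2.57) than in Prep+/- (1.63 and 0.55).

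Replicates of a group varied widely for several of these genes, and 9 of the 10 varied more than the median gene tested. The biological coefficient of variation was 0.740 for Egr1, higher than that of 99.6% of the genes tested, 0.361 for Fos (94.6%) and 0.340 for Dusp1 (93.5%), and lowest for Jun, at 0.143 (47.1%). The highest library exceeded the lowest of its group by 1.03-fold to 18.4-fold. Replicate 3 was the highest of its group in 37 of 60 cases of gene and group, replicate 1 in 15 and replicate 2 in 8. The 10 genes share their libraries, so the 60 cases are not independent. No such count was made over all genes tested, so it does not set these genes apart. Replicate 3 was highest in 6 of 6 groups for Junb, in 5 of 6 for Fos and Egr1 and in 4 of 6 for Dusp1. What the numbers mark is not stated, and the groups with the highest replicate 3 did not include M0 Prep-/- for Fos, Egr1 or Dusp1.

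**Figure D4:**
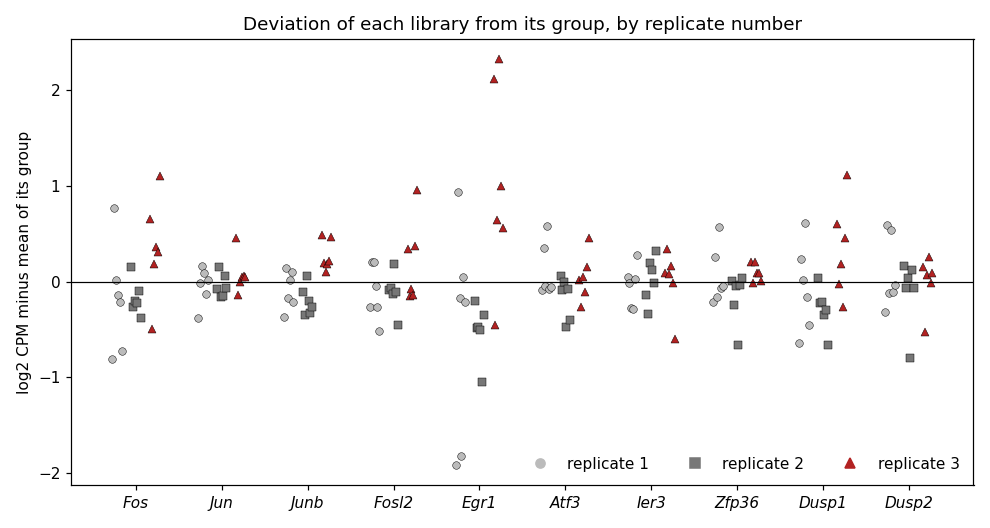
Deviation of each library from the mean log2 CPM of its group, by replicate number, for the 10 genes (6 groups each). Red triangles are replicate 3, which lay highest in 37 of 60 cases; for Egr1 the deviations reached beyond 2 units on the log2 scale.

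Of the 8 further dual-specificity MAPK phosphatases, all tested, 5 were called lower in Prep-/- M0 cells, as Dusp1 was, 3 were not called and none was called higher. Over all genes tested 17.2% were called lower, and the median log2 fold change was -1.28 over the 8 genes and 0.02 over all genes. Dusp6, the cytoplasmic ERK phosphatase, fell from 100.6 to 137 CPM in the Prep+/- libraries to 22.3 to 35.4 CPM in Prep-/- (log2 fold change -2.06 ± 0.38 SE, edgeR adjusted p = 3.19e-04). Dusp4, a nuclear phosphatase induced by ERK, stood at 4.06 to 18.03 CPM in Prep+/- and at 1.15 to 2.47 CPM in Prep-/- (-2.68 ± 0.40 SE, edgeR adjusted p = 6.17e-05). The remaining 3 were Dusp8 (0.687 CPM on average over the M0 libraries), Dusp9 (1.39 CPM) and Dusp16. Without M0 Prep+/- replicate 3, 4 of the 8 were called lower, and without replicate 3 of every group 3 (Dusp4, Dusp6 and Dusp9).

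The Sprouty and Spred genes, feedback inhibitors upstream of ERK, showed 3 of 5 tested called lower in M0 and none higher, against 17.2% of all genes called lower, with a median of -1.23. Spred2 stood at 12.7 to 28.8 CPM in Prep+/- and at 1.72 to 3.89 CPM in Prep-/- (log2 fold change -3.10 ± 0.67 SE, edgeR adjusted p = 0.00126). Spry2 had a log2 fold change of -1.68 ± 0.53 (SE, edgeR adjusted p = 0.0154), and Spry3, at 1.12 CPM on average over the M0 libraries, was the other gene called. Leaving out single M0 libraries left 1 to 3 called, with Spred2 among them each time and 1 called without Prep+/- replicate 3 or without Prep-/- replicate 2.

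In M1 only Dusp6 among the 8 phosphatases was lower in the knockout (-1.06 ± 0.36 SE, edgeR adjusted p = 0.0317) and only Dusp10 higher (1.0 ± 0.27, 0.00883). In M2 the single call was again Dusp6 (-2.22 ± 0.39, 6.36e-04), at 4.18 to 17.3 CPM in Prep-/- and 35.5 to 47.4 CPM in Prep+/-. The knockout effect changed from M0 to M1 for 3 of the 8 phosphatases, all upward and led by Dusp4 (2.52 ± 0.54 SE, edgeR adjusted p = 0.00352), and for 3 of the 5 Sprouty and Spred genes, among them Spred2 (2.62 ± 0.88, 0.0391) and Spry2 (2.44 ± 0.72, 0.0216), against 12.0% of all genes called upward. Dusp4 responded strongly to IL-4 and IL-13, by 2.86 ± 0.35 in Prep+/- and 5.45 ± 0.42 in Prep-/- (SE, log2, edgeR adjusted p = 1.90e-05 and 3.95e-08), to means of 86.3 and 81.1 CPM. The 9 atypical dual-specificity phosphatases tested had 1 call higher and none lower in M0, with a median of 0.05.

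**Figure D5:**
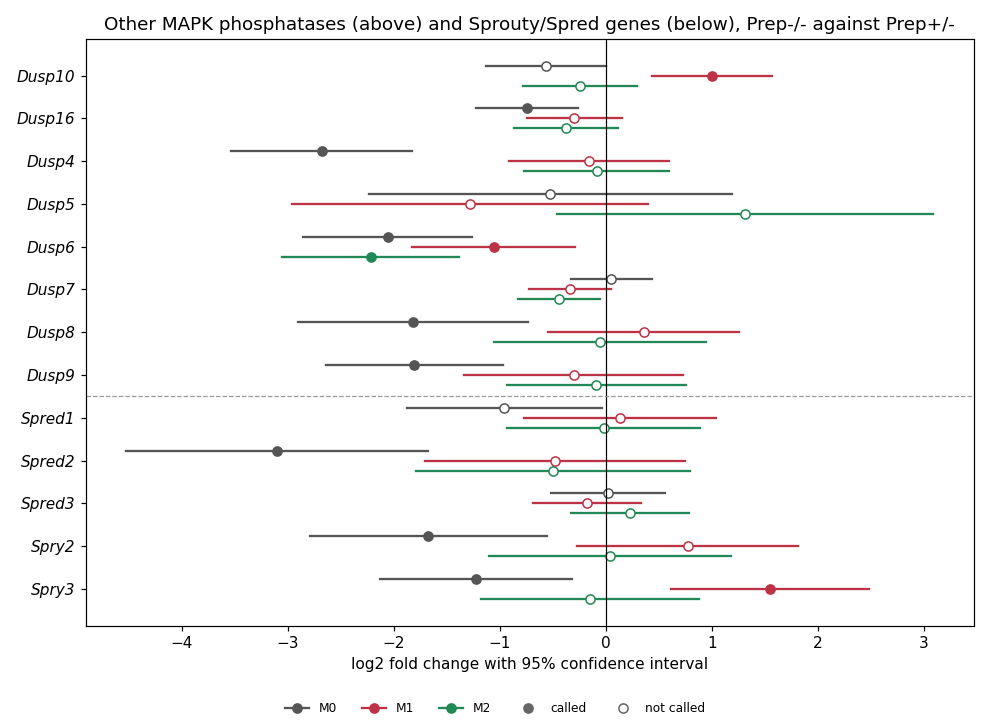
Log2 fold change of Prep-/- against Prep+/- with its 95% confidence interval from edgeR for the 8 other MAPK phosphatases and the 5 tested Sprouty and Spred genes in M0, M1 and M2. Filled symbols are called. In M0 5 of 8 and 3 of 5 were called lower, and Dusp6 was called lower in all 3 states.

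The other genes of the early response were called in both directions. Of 26 further immediate-early and stress-early genes tested, 9 were called higher and 3 lower in M0 Prep-/- cells. Their median log2 fold change was 0.26, and 15.4% of all genes tested were called higher and 17.2% lower. Among the called genes with a mean of 5 CPM or more, the largest changes were those of Gadd45a (1.60 ± 0.24 SE, edgeR adjusted p = 6.19e-05) and Btg1 (1.22 ± 0.16, 1.79e-05), both growth-restraining genes. Plk3, a stress-induced kinase below that level, was called lower (-3.15 ± 0.45 SE, edgeR adjusted p = 3.84e-05). In M1 the counts were 8 higher and 5 lower, with Phlda1 lower (-2.69 ± 0.77, 0.0134) and Gadd45g higher (1.77 ± 0.40, 0.00354), and in M2 5 higher and 2 lower, with Gadd45b higher (1.496 ± 0.24, 2.96e-04). LPS raised Phlda1 by 3.50 in Prep+/- and lowered Rgs2, a brake on G protein signalling, by 3.31 on the log2 scale.

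Among the 14 tested EGR, NR4A and KLF early genes with Myc and Srf, 2 were called higher and 1 lower in M0. The shares of all genes tested were 15.4% higher and 17.2% lower. The growth regulator Myc fell from 9.53 to 43.4 CPM in Prep+/- to 1.46 to 2.56 CPM in Prep-/- (log2 fold change -3.76 ± 0.64 SE, edgeR adjusted p = 1.75e-04), and it was lower in M1 as well (-2.56 ± 0.59, 0.00376). Nr4a1, an orphan nuclear receptor, was higher in M0 (1.25 ± 0.33, 0.00522). Egr2 rose with IL-4 and IL-13 in both genotypes, by 4.59 ± 0.36 in Prep+/- and 4.99 ± 0.36 in Prep-/- (SE, log2, edgeR adjusted p = 1.11e-07 and 2.10e-08).

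Of the 22 AP-1 and ATF relatives, 3 were called higher and 3 lower in M0, with Atf4, the effector of the integrated stress response, lower (-1.27 ± 0.17 SE, edgeR adjusted p = 2.41e-05). In M1 5 were higher and 3 lower, and Atf5 was 1.62 ± 0.17 higher in the knockout (1.45e-05). Of all genes tested 15.4% were called higher and 17.2% lower in M0, and 12.3% higher and 10.2% lower in M1. Batf rose with LPS in both genotypes, by 3.96 ± 0.15 and 3.11 ± 0.15, and Batf3 with IL-4 and IL-13, by 3.51 ± 0.37 and 3.02 ± 0.36 (SE, log2).

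Kinases that feed the set were called in both directions. Of 31 MAP kinases and upstream kinases tested, 6 were called in M0 (4 higher), 4 in M1 (2 higher) and 5 in M2 (2 higher). Map3k8, which links Toll-like receptors to ERK, was 1.31 ± 0.26 higher in M0 Prep-/- cells (SE, log2, edgeR adjusted p = 5.36e-04). Of the 10 kinases activated by MAP kinases 3 were higher and 2 lower in M0, of the 10 SRF and CREB side factors none was higher and 1 lower, and of the 15 mRNA decay factors 2 were higher and 1 lower. Zfp36l1, a paralog of Zfp36, was higher in M0 like Zfp36 (1.49 ± 0.20, 2.41e-05). Over all 10 lists, with 150 of 162 genes tested, the shares called were 30% for M0, 32% for M1 and 16% for M2, beside 32.6%, 22.5% and 16.2% of all genes.

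Likeness across the 18 libraries is given as a description, since the libraries share groups and depth. By Pearson's r of log2 CPM over 9600 or more candidate genes, the pattern of Dusp1 was nearest to Zdhhc18 (0.985) and Dync1i2 (0.980), that of Atf3 to Zfand5 (0.979) and Cd84 (0.969), and that of Jun to Erap1 (0.978) and Stam2 (0.961). Fos was nearest to Rbpj (0.953) and to Spred1 (0.938), a gene of the Spred list. Junb was nearest to Bcl2a1a (0.961) and Il1rn (0.960), Dusp2 to Rbms1 (0.947) and Plekhg1 (0.943), Ier3 to Ugcg (0.943) and Dedd (0.915), Zfp36 to Kdm7a (0.934) and Psme4 (0.928), and Fosl2 to Cd300ld (0.902) and Mmp13 (0.872). Egr1 had the weakest likeness, to Urb2 (0.827) and Ippk (0.807).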

How the data were processed

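Bulk RNA-seq counts of 18 BMDM libraries were analysed. According to the study's methods and the submitters' processing notes, mRNA libraries of a stranded kit were sequenced and reads were trimmed with Trimmomatic 0.36, aligned to GRCm39 with HISAT2 2.2.1.0 and assembled with StringTie, and the authors deposited the resulting table of counts per gene. The strand setting and the annotation used for counting are not given in the sources used here. The values are raw counts; CPM were computed here with TMM factors (0.818 to 1.20).

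Groups came from the sample labels. All 18 libraries entered 1 fit with edgeR 4.0.16 (R 4.3.3): filterByExpr kept 12021 of 16314 genes, each group had its own coefficient in the quasi-likelihood test, with Benjamini-Hochberg adjustment over all genes tested. Called means an adjusted p below 0.05 and a change over 1.5-fold. Differences of knockout effects were contrasts of 4 groups. SEs and 95% intervals derive from the same fit. Before use, the fit was run on counts simulated with a biological coefficient of variation of 0.167 for every gene. That setting lies below the spread of Egr1, Fos and Dusp1, and the run did not check SEs or intervals. DESeq2 1.42.0 was an alternative. Counting error at this depth was small beside the spread of replicates, except for Dusp2 (16 to 111 counts per library). No pair of replicates agreed within sampling noise (at least 9.87 chi-square units per gene).

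The replicate numbers were checked for pairing by the correlation of deviations from group means. All 3 correlations exceeded 0.1 only between the M2 genotypes (0.249, 0.255 and 0.462) and between M1 and M0 of Prep-/- (0.201, 0.169 and 0.259), where numbers were taken to pair the libraries. Blocking changed no call of the 10 genes in these comparisons.

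The 10 genes and all lists were chosen with earlier results of these data known. Named were all 10 genes, at most the 2 called genes with the largest log2 fold change per list and comparison at a mean of 5 CPM or more, the 2 genes most like each member by Pearson's r (log2 CPM, prior count 2), and Prep. Dusp8, Dusp9, Dusp10, Dusp16, Spry3 and Plk3 were named after their values were seen. Alternatives were DESeq2, other size factors, other filters on low counts, no minimum fold, the compared libraries alone, a replicate block and leaving out libraries. The alternative with no minimum fold reused the main fit, so it could neither lose a call nor change a sign. Gene positions came from the GENCODE annotation of GRCm39, upstream sequences from RefSeq (GRCm38.p6), and shared stretches from blastn 2.17.0 with at least 100 bases at 90% identity.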

Additional observations from a re-analysis of the deposited data

Results flagged for a closer look

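The effect of the knockout on 7 combinations of gene and state differed from its effect in M0, by a test of the difference itself in edgeR's quasi-likelihood fit with Benjamini-Hochberg adjustment (3 libraries per group). In M1 the difference on the log2 scale was 2.02 for Fos (adjusted p = 0.0234), 0.88 for Jun (0.0106), 1.17 for Atf3 (0.0179), -2.89 for Ier3 (1.98e-05) and 2.62 for Dusp1 (0.00409). In M2 it was 0.99 for Jun (0.0130) and -1.45 for Ier3 (0.00836). Both sets share the M0 libraries, and M0 Prep+/- replicate 3 and M0 Prep-/- replicate 3 enter all 7 values. Over all genes tested 21.1% and 8.66% were called in these tests.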

How the results depend on the processing

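Of 1380 alternative values of the 10 genes, 1279 kept direction and call, 35 lost the call, 15 gained one and 51 changed sign, none of these for a gene called with all libraries in that comparison. The values with no minimum fold came from the main fit, so for them a kept sign was certain beforehand. Leaving out single libraries gave counts of 3 to 6 in M0, 2 to 5 in M1, 0 to 2 in M2 and 3 to 6 for M2 against M0 in Prep+/-, against 6, 4, 0 and 6 called. All other counts of called genes stayed within 1.5 times the reported one except the M2 minus M0 difference of knockout effects, which went from 2 to 1 with the replicate block, as Ier3 (-1.51, edgeR adjusted p = 0.0707) missed the threshold.

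Sign changes were as follows. With a minimum of 1 CPM in 3 libraries Fosl2 in M2 was -0.021. With the replicate block Fosl2 in M2 was -0.14, Fos in M2 -0.13, Dusp2 in M1 -0.033, Egr1 from M0 to M1 in Prep+/- 0.17 and the M1 minus M0 difference of Zfp36 -0.0022. Without replicate 3 of every group, chosen after the data were seen, Dusp2 was 0.20 in M0 and -0.011 in M1, Jun -0.0043 in M1, Fos -0.52 and Fosl2 -0.42 in M2. Under the same setting Egr1 from M0 to M1 was 0.73 in Prep+/- and -0.12 in Prep-/-, Fos, Junb and Dusp1 from M0 to M2 in Prep-/- were -0.15, -0.082 and -0.082, and the differences of knockout effects were -0.85 for Egr1 and -0.21 for Dusp2 in M1 and -0.043 for Dusp2 in M2. Over single libraries left out, values ranged in M0 from -0.076 to 0.35 for Junb, -0.152 to 0.152 for Atf3 and -0.46 to 0.13 for Dusp2. In M1 they ranged from -0.047 to 0.10 for Jun and -0.25 to 0.35 for Dusp2, and in M2 from -0.70 to 0.37 for Fos, -0.39 to 0.0010 for Junb, -0.64 to 0.25 for Fosl2, -0.84 to 0.19 for Egr1 and -1.01 to 0.066 for Dusp1. In Prep+/- Egr1 ranged from -1.07 to 1.17 from M0 to M1 and from -2.12 to 0.22 from M0 to M2. In Prep-/- Junb ranged from -0.20 to 0.19 and Dusp1 from -0.080 to 0.997 from M0 to M2. Differences of effects ranged from -0.24 to 0.35 for Zfp36 and -0.155 to 0.513 for Dusp2 in M1, and from -0.88 to 0.0027 for Fosl2 in M2. The cause of these changes was not tested.

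The replicate numbers did not pair the libraries between the M0 genotypes (correlations of -0.107, -0.0393 and -0.315, with 0 of 6 libraries most like their own number). With the replicate block the counts were 4 in M0, where Fos (edgeR adjusted p = 0.0731) and Egr1 (0.0670) missed the threshold, 5 in M1, where Egr1 passed (0.0101; 3 of 6 libraries most like their own number), 7 and 7 for M1 and M2 against M0 in Prep+/-, and 5 for M2 against M0 in Prep-/-. It changed no call of the 10 genes in the paired comparisons. Over all genes tested, counts of calls moved by more than 1.5 times in M1 (2700 to 4370 with no minimum fold, 1742 without Prep-/- replicate 1), in M2 (1947 to 2967 with no minimum fold) and for M2 against M0 in Prep-/- (3636 to 2341 with the block). The M2 minus M0 count went from 1041 to 562 with only the libraries compared, 546 with the block, 502 and 555 without M0 Prep+/- replicate 2 and 3, 557 and 609 without M2 Prep+/- replicate 1 and 2, and 630 without replicate 3 of every group. Depth limited only Dusp2.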
